A study of Homo sapiens with 6 samples.

Results

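The dual-specificity MAP kinase phosphatases were followed in macrophage-like cells in which the circular RNA hsa_circ_0004287 had been targeted by siRNA. The group comprised DUSP1, DUSP2, DUSP4, DUSP5, DUSP6, DUSP8, DUSP10, DUSP14 and DUSP16, taken by symbol. All 9 were among the 19976 genes of the deposited table, all 9 had counts in every library, and all 9 passed the filter on low counts that 12469 genes passed.

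The cells were THP1, an established human monocytic leukaemia line. In both groups they were differentiated with 50 ng/ml of the phorbol ester PMA for 48 h, transfected for 48 h with siRNA at 200 nM, and finally given 200 ng/ml LPS (bacterial lipopolysaccharide, the TLR4 agonist) for 3 h. The groups differed only in the siRNA, which was a negative control (NC) in 3 libraries, here the control libraries, and was directed at hsa_circ_0004287 in 3 libraries, here the circ libraries. There was no arm without PMA, siRNA or LPS, so every level below is a level in LPS-treated cells. Nothing in the labels states whether the libraries numbered 1 to 3 in a group derive from separate cultures. The p-values therefore judge the difference between groups against a library-to-library spread that could be only technical. The circular RNA itself was not analysed here.

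MAP kinases (ERK, JNK and p38) are switched on by phosphorylation of a threonine and a tyrosine in the activation loop, and dual-specificity phosphatases switch them off by removing both phosphates. Many of these phosphatases are encoded by genes that the same kinases induce, which makes them a negative feedback. In macrophages, DUSP1 is the best known of them: mice without Dusp1 overproduce cytokines such as TNF, IL-6 and IL-10 after LPS. By textbook preference, DUSP1, DUSP2, DUSP4 and DUSP5 act in the nucleus, DUSP6 acts in the cytoplasm on ERK, DUSP8, DUSP10 and DUSP16 prefer JNK and p38, and DUSP14 is a small atypical enzyme without the kinase-binding domain of the others.

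All 9 genes carried the annotation for MAP kinase tyrosine/serine/threonine phosphatase activity in the deposited table, a term held by 12 of the tested genes. The exonic lengths given in the table ran from 1929 bases (DUSP2) to 7273 bases (DUSP4), against a median of 5193 bases over tested genes. The genomic spans ran from 2.3 kb (DUSP2) and 3.1 kb (DUSP1) to 40.7 kb (DUSP10) and 89.6 kb (DUSP16), against a median of 32.8 kb. In GENCODE 29, 40.5% of the exon bases of DUSP6 were shared with an antisense gene on the opposite strand. No other member shared exon bases with another annotated gene. Because the use of strand in counting is not given in the sources used here, reads of DUSP6 and of its antisense partner cannot be told apart.

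The upstream sequences of DUSP1, DUSP16 and DUSP8 are shown because the groups of libraries did not overlap for the first and second of these genes, and because DUSP1 and DUSP8 alone, among the 7 members with an entry in the RefSeq promoter table (GRCh38.p14), held the cAMP response element (CRE), the site of CREB and ATF factors. Each run is the 250 bases before the annotated start on the gene's own strand, and capitals mark every match to TGACG, the core of the CRE, or to its reverse complement CGTCA. The windows are chr5:172771196-172771445 for DUSP1, chr12:12562864-12563113 for DUSP16 and chr11:1572272-1572521 for DUSP8, all on the minus strand.
DUSP1: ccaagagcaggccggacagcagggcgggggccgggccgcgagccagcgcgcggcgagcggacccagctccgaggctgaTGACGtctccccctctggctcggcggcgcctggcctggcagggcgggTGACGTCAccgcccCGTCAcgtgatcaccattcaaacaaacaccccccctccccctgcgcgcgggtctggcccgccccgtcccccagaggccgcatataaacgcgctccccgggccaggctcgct
DUSP16: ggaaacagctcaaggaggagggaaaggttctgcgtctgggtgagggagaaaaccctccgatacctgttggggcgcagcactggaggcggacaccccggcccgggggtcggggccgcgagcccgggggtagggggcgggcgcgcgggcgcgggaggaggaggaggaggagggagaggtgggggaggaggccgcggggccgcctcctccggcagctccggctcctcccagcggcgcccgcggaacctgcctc
DUSP8: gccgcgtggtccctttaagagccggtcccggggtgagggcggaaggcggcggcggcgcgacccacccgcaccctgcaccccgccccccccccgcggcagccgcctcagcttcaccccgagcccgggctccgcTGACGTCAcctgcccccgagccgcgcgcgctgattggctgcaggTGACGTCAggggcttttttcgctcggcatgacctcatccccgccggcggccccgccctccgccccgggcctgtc

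Counted from the start, with the base before it at -1, the full CRE palindrome TGACGTCA stood at -125 to -118 in DUSP1, and at -118 to -111 and -74 to -67 in DUSP8. DUSP1 had additional cores at -172 to -168 and at -111 to -107. The second of these overlapped an E-box, CACGTG, at -108 to -103, and a TATA box, TATAAA, stood at -30 to -25. On either strand, the full CRE was present in 1.65% and the core in 21.2% of 35116 promoter windows of the same length. The E-box, also found in DUSP2, was present in 6.34%, and the TATA box in 10.7%. The AP-1 site TGANTCA, the CArG box and the NF-kB site were each searched as 1 consensus of letters on both strands. They matched in 0 of the 7 members, against 6.57%, 1.16% and 5.21% of all windows. The DUSP16 window held none of the motifs searched except the GC box, GGGCGG, which 6 of the 7 members and 42.6% of all windows contained. These matches describe the letters in the windows only.

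Facts of the whole data set that touch the members are few. Total counts ran from 14793902 to 16736972 per library, where 3 counts correspond to 0.179 to 0.203 CPM (counts scaled to the library total). The first principal component, with 53.4% of the variance, had control library 1 and circ library 3 at -23.2 and -38.4 and the other libraries between -1.51 and 30.4, so the largest spread was not between the groups. The macrophage markers SPI1, CSF1R and CD14 were present, with at least 6939, 10164 and 2032 counts in every library. CD68 had 1 to 5 counts, MRC1 2 to 6 and LYZ 70 to 103. These 3 go against the macrophage label. In GENCODE 29, 81.7% of the exon bases of CD68 and 34.0% of those of LYZ were shared with another annotated gene. The whole macrophage list, with 10 of 10 genes in the table and 0 at no count, summed to 2000 to 2160 CPM in control and 1570 to 2030 CPM in circ libraries. T and NK cell markers, relevant because DUSP2 is also known from activated T cells, summed to 3.07 to 6.13 and 3.65 to 4.24 CPM. Of these, CD2 and CD3G were at 0 counts, whereas NKG7 had 20 to 54 and GNLY 19 to 40 counts. B cell markers summed to 24.3 to 26.7 and 34.9 to 43.7 CPM, of which CD22 held most, and CD79A and MS4A1 had at most 6 and 3 counts. Neutrophil markers summed to 34.6 to 40.6 and 41.3 to 53.0 CPM. CSF3R, with 447 to 604 counts, and ELANE, with 89 to 175, held most of this, and CEACAM8 was at 0 counts. Fibroblast markers summed to 14.0 to 19.2 and 11.8 to 17.2 CPM, of which COL1A1, with 154 to 291 counts, held most. Epithelial markers summed to at most 0.693 CPM, with EPCAM at 0 counts. The part of these markers in the results below was not tested, and in bulk RNA fewer cells of a type and less RNA per cell cannot be told apart.

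Levels per length, in the deposited FPKM (a count scaled to the gene's length and the library's total), spanned from 137 ± 3.72 for DUSP6 to 2.70 ± 0.68 for DUSP16 in control libraries (mean ± SD, n = 3 here and below). DUSP5 followed DUSP6 at 133 ± 4.85 FPKM, and the control libraries of these 2 genes overlapped in level. Then came DUSP1 with 98.4 ± 3.32 FPKM, DUSP10 with 89.2 ± 7.77 FPKM, DUSP2 with 71.5 ± 8.76 FPKM, DUSP14 with 50.7 ± 3.14 FPKM, DUSP4 with 28.1 ± 2.34 FPKM and DUSP8 with 5.53 ± 0.15 FPKM. Apart from DUSP6 and DUSP5, neighbours in this order did not overlap in the 3 control libraries. The 5 highest members exceeded at least 95.3% of tested genes in FPKM, whereas DUSP8 exceeded 59.7% and DUSP16 43.7%.

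In circ libraries the order was the same except at the top, where DUSP5 had 144 ± 1.83 FPKM, DUSP6 133 ± 13.1 FPKM and DUSP1 133 ± 19.2 FPKM. Levels of DUSP6 and DUSP1 overlapped, as did those of DUSP10 (91.8 ± 12.1 FPKM) and DUSP2 (82.5 ± 8.14 FPKM). In circ library 3, DUSP1 reached 154.8 FPKM and was the highest member, and DUSP6 was at 118 FPKM. In circ libraries 1 and 2, DUSP1 was at 121 and 122 FPKM, below DUSP6 at 142 and 139.8 FPKM. The order in both groups was unchanged when TMM-scaled counts per kilobase replaced FPKM.

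**Figure D1:**
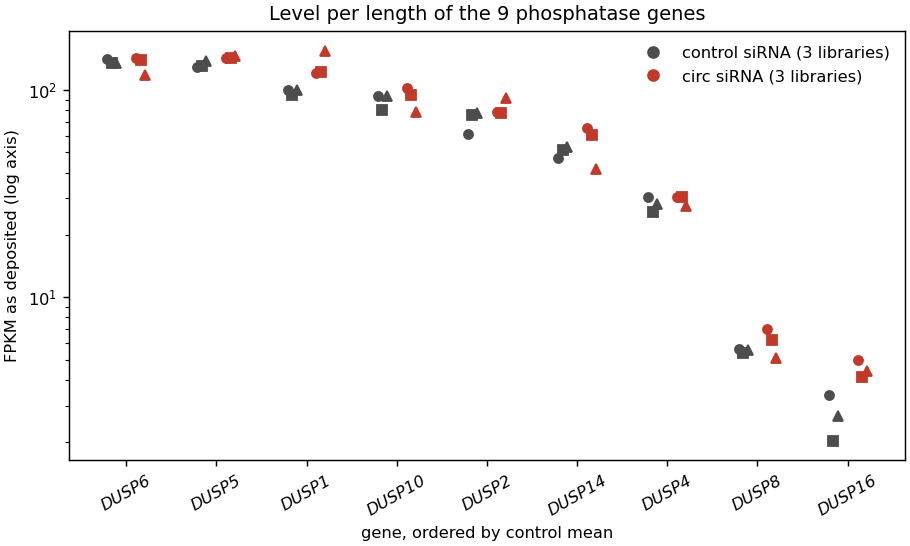
Level per length of the 9 genes in FPKM as deposited (log axis), ordered by the control mean; circles, squares and triangles are libraries 1, 2 and 3 of the control siRNA (grey) and circ siRNA (red) groups. DUSP6 and DUSP5 are the most abundant, DUSP8 and DUSP16 lie far below the others, and the red points of DUSP1, DUSP5 and DUSP16 all lie above the grey ones.

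Summed over the 9 genes, FPKM reached 614, 601 and 635 in the control group (libraries 1 to 3). The circ group had 695, 679 and 669. Every circ library exceeded every control library in this sum of FPKM, which carries no TMM scaling. The TMM factor was 1.055 for circ library 3 and 0.9726 for control library 3. Scaling by these factors would put circ library 3 below control library 3, so the separation holds for FPKM only. The nuclear enzymes DUSP1, DUSP2, DUSP4 and DUSP5 together made up 52.5%, 54.4% and 54.3% of the summed FPKM in the control group. Their share was 53.7%, 54.9% and 62.9% in circ libraries 1 to 3, so that circ library 3 stood apart from the other 5. DUSP6 made up 21.3% to 23.1% in control libraries and 17.7% to 20.6% in circ libraries.

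The comparison of the groups asks whether the transcripts of these feedback phosphatases differed when the circular RNA was targeted. None of the 9 passed the threshold (edgeR quasi-likelihood test, Benjamini-Hochberg adjusted p under 0.05 over 12469 genes). The members called higher numbered 0 and the members called lower 0, beside 0% and 0.00802% of all tested genes, the latter being 1 gene. DESeq2 called 0 members, beside 0.491% of its genes higher and 0.18% lower, and limma-voom called 0 members and 0% of genes. An unadjusted p under 0.05 was found for 2 members, DUSP16 and DUSP1, both with the higher value in circ libraries, beside 3.77% of tested genes higher and 2.68% lower. Log2 fold changes (circ minus control) were positive for 8 members and negative for 1, with a median of 0.12, while 48.8% of all tested genes had positive values and their median was -0.007. The circ libraries all lay above the control libraries for 2 members, as they did for 6.64% of tested genes, and all below for 0 members, as for 5.87%.

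**Figure D2:**
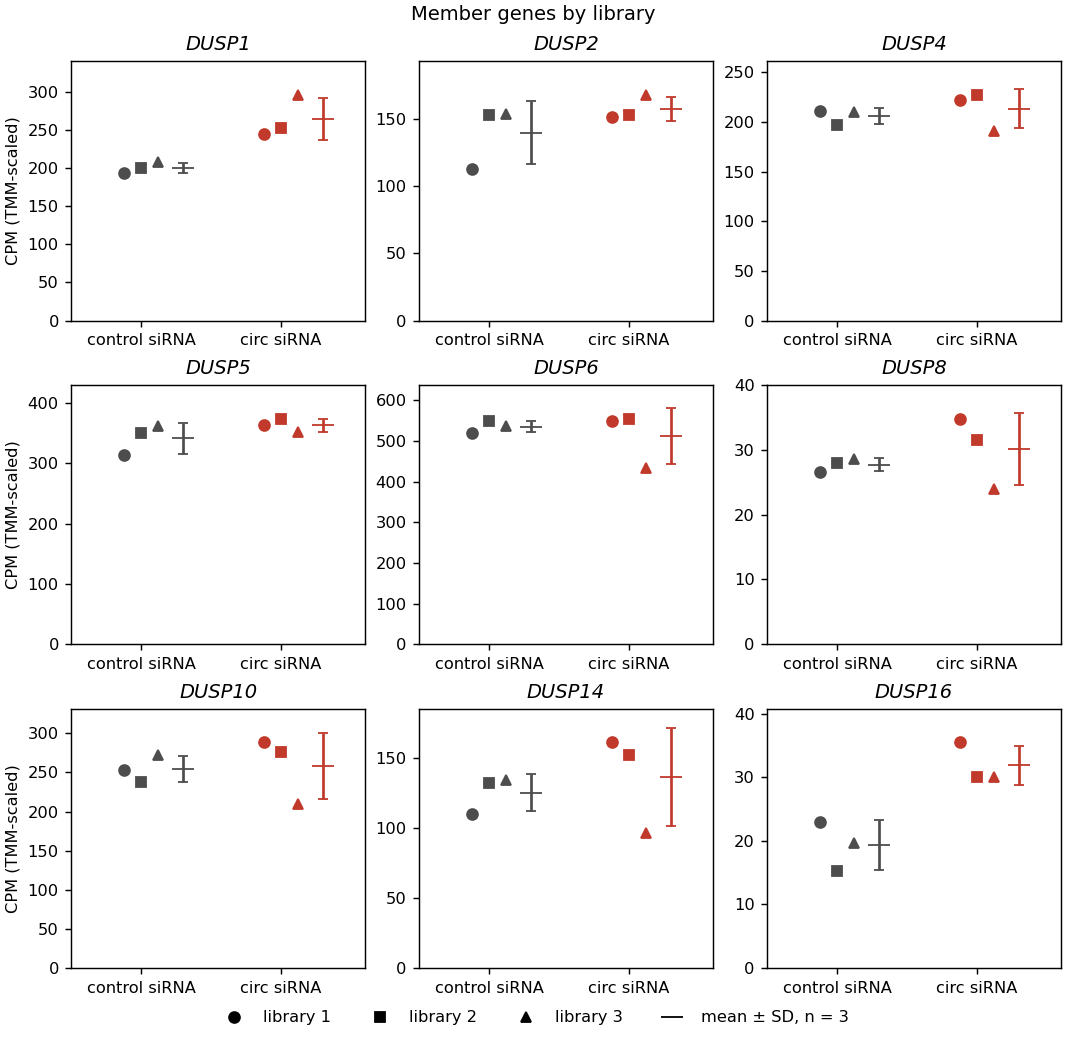
CPM on TMM-scaled library sizes in each of the 3 control siRNA (grey) and 3 circ siRNA (red) libraries for the 9 genes, with the mean and SD of each group beside the points; each y axis starts at 0. Groups are separate for DUSP1 and DUSP16 and overlap for the other 7, and circ library 3 (red triangle) is the lowest of all 6 for DUSP4, DUSP6, DUSP8, DUSP10 and DUSP14.

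Among the nuclear, inducible enzymes, DUSP1 (ENSG00000120129; chromosome 5, 172768096 to 172771195, GRCh38, minus strand) dephosphorylates p38, JNK and ERK. It had 193, 199.9 and 207 CPM in control libraries 1 to 3 and 244, 252 and 296 CPM in circ libraries 1 to 3. All circ libraries lay above all control libraries, and circ library 3 was the highest. The means were 199.9 ± 7.17 and 264 ± 27.7 CPM, a log2 fold change of 0.40 (SE 0.12, 95% interval 0.13 to 0.68) or 1.32-fold, with an edgeR adjusted p = 0.566. Of all tested genes, 1.72% had a smaller p. DESeq2 gave an adjusted p = 0.263.

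DUSP2 (ENSG00000158050; chromosome 2, 96143169 to 96145440), first known from activated lymphocytes, had 113, 153 and 154 CPM in control libraries 1 to 3. In circ libraries 1 to 3 it had 152, 153 and 168 CPM. Control library 1 was low and the other 5 libraries lay close together, so the groups overlapped. Its log2 fold change came to 0.17 (95% interval -0.17 to 0.51, SE 0.15), with an edgeR adjusted p = 0.885. Without control library 1 it was 0.04.

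DUSP4 (ENSG00000120875; chromosome 8, 29333064 to 29350684), a nuclear phosphatase of ERK, JNK and p38, had 211, 197 and 210.0 CPM in control libraries. It had 222, 227 and 191 CPM in circ libraries 1 to 3. Circ library 3 was the lowest of the 6 and circ libraries 1 and 2 the highest. The difference on the log2 scale was 0.05 (95% interval -0.22 to 0.32, SE 0.12), with an edgeR adjusted p = 0.933.

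DUSP5 (ENSG00000138166; chromosome 10, 110497907 to 110511533), a nuclear phosphatase that prefers ERK, had 313, 349.6 and 362 CPM in control and 363, 374 and 352 CPM in circ libraries. Its circ library 3 was within the range of the control libraries, so the groups overlapped in CPM. In FPKM, which carries no TMM scaling, they did not, with 129.7, 131 and 138.8 against 143, 144 and 147. The fit of the counts gave a log2 fold change of 0.09 (95% interval -0.17 to 0.35, SE 0.11), with an edgeR adjusted p = 0.899.

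The cytoplasmic ERK phosphatase DUSP6 (ENSG00000139318; chromosome 12, 89347235 to 89352501), the member with the antisense overlap, had 520.3, 548 and 537 CPM in control libraries and 549, 554 and 433 CPM in circ libraries. The other 5 libraries lay within a narrow range and circ library 3 was below them all. Its log2 fold change came to -0.06 (95% interval -0.37 to 0.24, SE 0.13), with an edgeR adjusted p = 0.931, and without circ library 3 it was 0.05. The interval holds no change and, at its lower end, a level 0.775 times that of the control libraries.

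Of the enzymes that prefer JNK and p38, DUSP16 (ENSG00000111266; chromosome 12, 12473282 to 12562863, minus strand) is best known for acting on JNK. Its counts were 401, 232 and 304 in control libraries and 588, 490 and 468 in circ libraries. On the CPM scale the control group had 23.0, 15.3 and 19.7 and the circ group 35.5, 30.1 and 30.01. Every circ library lay above every control library, and the control libraries were spread more widely than the circ libraries. Its log2 fold change reached 0.72 (95% interval 0.32 to 1.12, SE 0.17) or 1.65-fold, the largest of the 9 members, and the edgeR adjusted p = 0.443 did not pass the threshold. Of all tested genes, 0.658% had a smaller p and 98.2% a lower log2 fold change. DESeq2 gave an adjusted p = 0.0517.

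DUSP10 (ENSG00000143507; chromosome 1, 221701424 to 221742089) acts on p38 and JNK. It had 253, 238 and 272 CPM in control libraries and 288, 276 and 210.2 CPM in circ libraries. Circ libraries 1 and 2 were the highest of the 6 and circ library 3 the lowest. The difference on the log2 scale was 0.02 (95% interval -0.31 to 0.36, SE 0.15), with an edgeR adjusted p = 0.978.

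DUSP8 (ENSG00000184545; chromosome 11, 1554051 to 1572271), which prefers JNK and p38 and whose promoter window holds the pair of CREs shown above, had 26.6, 27.9 and 28.5 CPM in control libraries. It had 34.8, 31.6 and 23.9 CPM in circ libraries 1 to 3, again with circ libraries 1 and 2 highest and circ library 3 lowest. This gave a log2 fold change of 0.12 (95% interval -0.24 to 0.49, SE 0.16), with an edgeR adjusted p = 0.902.

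The atypical enzyme DUSP14 (ENSG00000276023; chromosome 17, 37489891 to 37513501) is known as a brake on T cell receptor signalling. It had 109.8, 132 and 134 CPM in control libraries and 161, 152 and 96.6 CPM in circ libraries. This was the widest spread of the circ group relative to its mean, 137 ± 34.9 CPM. Its log2 fold change came to 0.13 (95% interval -0.33 to 0.58, SE 0.20), with an edgeR adjusted p = 0.916.

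Across libraries the members shared a direction in some and divided in others. In circ libraries 1 and 2, all 9 lay above their own 6-library mean of log2 CPM, with median deviations of 0.09 and 0.12. In circ library 3, 4 lay above and 5 below, from 0.37 for DUSP1 to -0.42 for DUSP14. In control libraries 1 to 3, 1, 3 and 6 members lay above. Control library 1 and circ library 3, the libraries apart on the first component, had positive correlations of a gene's deviation with its tabulated length across the 12469 genes, with Spearman's rho of 0.47 and 0.39, and in the other 4 libraries rho was between -0.44 and 0.05. These correlations are over genes, and genes are no independent replicates. Not all members followed their length in circ library 3: of the short ones, DUSP1 and DUSP2 were the highest of the 6 libraries there and DUSP14 and DUSP10 the lowest, and of the long ones DUSP4 was the lowest. The part of this trend in the values of the members was not tested beyond the fit with length and GC offsets, in which DUSP1, DUSP2 and DUSP16 had log2 fold changes of 0.50, 0.33 and 0.67 (edgeR adjusted p = 0.397, 0.576 and 0.174).

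Without control library 1 and circ library 3, a fit with 2 libraries per group, 3 members were called higher and 0 lower, beside 7.38% and 7.43% of tested genes. These were DUSP16 with a log2 fold change of 0.91 (SE 0.13, edgeR adjusted p = 0.00112), DUSP1 with 0.29 (SE 0.07, adjusted p = 0.0172) and DUSP14 with 0.24 (SE 0.07, adjusted p = 0.0417). These libraries were chosen for being apart in earlier results of these data. With each library left out in turn, DUSP16 stayed between 0.58 and 0.87 and DUSP1 between 0.31 and 0.45 on the log2 scale, and neither was called (lowest edgeR adjusted p = 0.156 and 0.197). Of the other members, DUSP2 ran from 0.04 to 0.24 and DUSP4 from 0.01 to 0.13. The ranges were 0.03 to 0.13 for DUSP5 and 0.00 to 0.26 for DUSP8. DUSP6, DUSP10 and DUSP14 took both signs, from -0.12 to 0.05, -0.06 to 0.15 and -0.01 to 0.32.

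**Figure D3:**
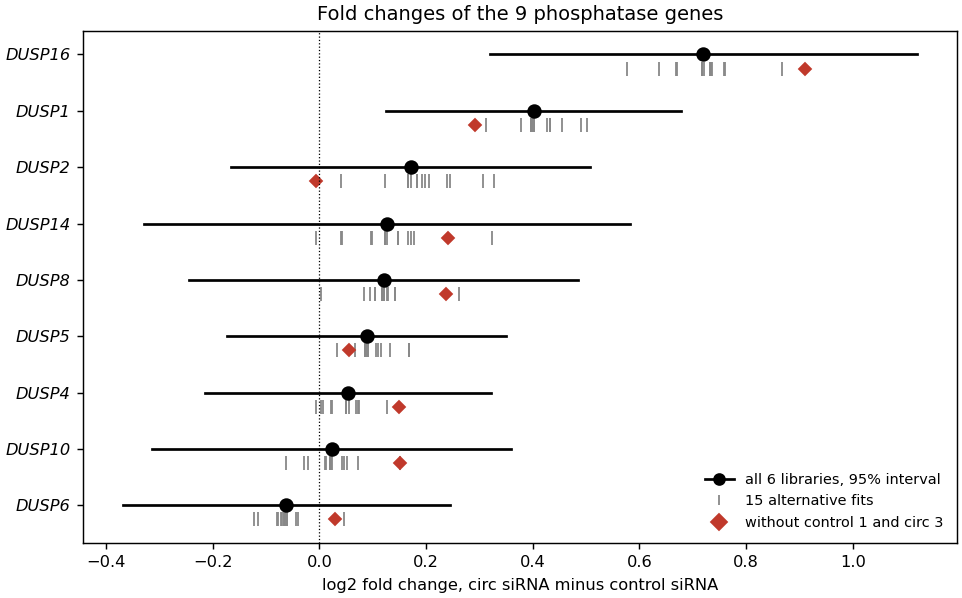
Log2 fold changes (circ siRNA minus control siRNA) of the 9 genes, with black points and 95% intervals for the edgeR fit of all 6 libraries, grey ticks for 15 alternative fits and red diamonds for the fit without control library 1 and circ library 3. Intervals exclude 0 for DUSP16 and DUSP1 before adjustment for 12469 genes. The values of these genes stay above 0 in every fit drawn, as do those of DUSP5 and DUSP8, whose intervals include 0.

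The genes with the pattern most like that of DUSP16 over the 6 libraries were sought among 7965 tested genes with a mean of at least 10 CPM outside the DUSP family, by the root mean square difference of log2 CPM centred on the 6-library mean. They were PDE4A, a cAMP phosphodiesterase, with a difference of 0.047, DSE, an enzyme of dermatan sulphate synthesis, with 0.092, SIPA1L1, a Rap GTPase-activating protein, with 0.092, PCDH9, a protocadherin, with 0.103, and RUNX2, a Runt transcription factor, with 0.108. PDE4A had 97.8 ± 16.8 CPM in control and 155 ± 15.5 CPM in circ libraries. These 5 had log2 fold changes between 0.65 and 0.81 and none passed the threshold in edgeR, with adjusted p = 0.265 for DSE as the lowest. DESeq2 called 4 of them, DSE, RUNX2, PDE4A and SIPA1L1 (adjusted p = 0.000734, 0.0305, 0.0381 and 0.0419). Their choice by likeness to DUSP16 fixes the direction and near size of these values. The likeness is a description over 6 libraries.

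Of the other dual-specificity phosphatase genes and their relatives, 14 were tested, and 0 were called in either direction, beside 0% and 0.00802% of all tested genes. Positive values were found for 7 and negative for 7, with a median log2 fold change of -0.001. Groups were separate and higher in circ libraries for 2 of the 14 and lower for 1, beside 6.64% and 5.87% of tested genes. DUSP12, a zinc-binding family member, had 18.3, 28.0 and 26.1 CPM in control and 16.8, 20.0 and 14.3 CPM in circ libraries, a log2 fold change of -0.50 (edgeR adjusted p = 0.728). DUSP7, the cytoplasmic ERK phosphatase related to DUSP6, had 57.3, 47.1 and 52.6 CPM in control and 45.5, 47.6 and 29.4 CPM in circ libraries, with a log2 fold change of -0.36 (adjusted p = 0.861). Circ library 3 was the lowest library for both genes. DUSP22 had separate groups, higher in circ libraries, and a log2 fold change of 0.29 (adjusted p = 0.851). The other phosphatases of MAP kinases, among them catalytic and scaffold subunits of PP2A, had 6 negative values and 1 positive value among 7 tested genes, a median of -0.13 and 0 calls. Those with the smallest p were PPM1B, PPP2CB and PPP2R1A, at -0.19, -0.13 and -0.13 (adjusted p = 0.885, 0.889 and 0.889). Without circ library 3, DUSP7, DUSP22 and PPM1B were at -0.17, 0.16 and -0.08.

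The kinases above the phosphatases gave 0 calls as well. The 11 tested MAP kinases had a median log2 fold change of 0.08, the 7 MAP2 kinases -0.03 and the 20 MAP3 kinases 0.08, and 6, 3 and 16 of them had positive values. MAP3K8 (TPL2), the kinase that links TLR4 to ERK, had 117, 107 and 108 CPM in control libraries and 135, 127 and 170.2 CPM in circ libraries. Its groups did not overlap, and the log2 fold change was 0.39 (edgeR adjusted p = 0.659). MAP3K7 (TAK1), which starts the p38 and JNK routes, had 0.26 (adjusted p = 0.820) and MAP3K6 0.22 (adjusted p = 0.864), also with separate groups. Of the 20 MAP3 kinases, these 3 had separate groups, all higher in circ libraries, beside 6.64% of tested genes. MAPK6, an atypical kinase related to ERK, had 126, 80.3 and 89.1 CPM in control and 131, 119.5 and 127 CPM in circ libraries, with overlapping groups and a log2 fold change of 0.35 (adjusted p = 0.815). MAPK7 and MAPK10 had 0.15 each (adjusted p = 0.886 and 0.889), and MAP2K5, MAP2K2 and MAP2K7 had -0.11, -0.16 and 0.04 (adjusted p = 0.918, 0.918 and 0.945). Among 7 tested scaffolds, which hold the kinases together, the median was 0.08, with SPAG9, MAPK8IP1 and LAMTOR3 at 0.29, -0.34 and -0.10 (adjusted p = 0.885, 0.885 and 0.905). SPAG9 was high in circ library 3 (396 CPM) and control library 1 (316 CPM), and its value was 0.06 without the first and 0.49 without the second. MAPK8IP1 was at -0.52 without control library 1, MAPK6 at 0.57 without control library 1 and 0.23 without control library 2, and MAP3K8 at 0.25 without circ library 3. The smaller values of MAPK7, MAPK10, LAMTOR3, PPP2CB, PPP2R1A and the 3 named MAP2 kinases also moved by over 1.5 times with 1 library left out.

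Downstream of ERK, 9 transcripts used as readouts of its activity were tested, with DUSP genes left out. Negative values were found for 7 and positive for 2, with a median of -0.26 and 0 calls. The groups were separate for 4, each with circ below control, beside 5.87% of tested genes. SPRY2 and SPRY4 also belong to the list of inhibitors below, and EGR1, FOSL1 and IER3 to the early response genes. SPRY4, a Sprouty inhibitor of the ERK route, had 44.1, 35.8 and 33.3 CPM in control libraries and 27.9, 24.5 and 28.2 CPM in circ libraries, so the groups were separate. Its log2 fold change was -0.49 (edgeR adjusted p = 0.566). SPRY2 had 125, 114 and 116 CPM in control and 109, 101 and 74.5 CPM in circ libraries, with -0.32 (adjusted p = 0.817). EGR1, a zinc finger factor of early response, had a positive value, 0.35 (adjusted p = 0.753), with overlapping groups. Without circ library 3, SPRY2 was at -0.17 and EGR1 at 0.23. In the list of Sprouty, SPRED and related inhibitors, 10 were tested with a median of 0.09, and SPRY1 differed in direction from SPRY4 and SPRY2. SPRY1 had 1.49, 0.92 and 0.84 CPM in control and 2.23, 2.03 and 2.89 CPM in circ libraries, a log2 fold change of 1.12 (adjusted p = 0.536).

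Genes of CREB and the cAMP response, the route of the CRE shown in the DUSP1 and DUSP8 windows, had 12 positive and 2 negative values among 14 tested genes. Their median log2 fold change was 0.46, beside -0.007 over all tested genes, and 0 were called in edgeR, while 6 had an unadjusted p under 0.05 with a positive value. The groups were separate and higher in circ libraries for 6 of the 14, beside 6.64% of tested genes. This list was chosen with earlier results of these data known, so its median and its separate groups are a description only. Whether the CRE has a part in these values was not tested. CREM, a CREB family factor, had 18.5, 25.5 and 27.5 CPM in control and 43.8, 43.5 and 53.1 CPM in circ libraries, a log2 fold change of 0.97 (edgeR adjusted p = 0.268, DESeq2 adjusted p = 0.00152). PDE4B, a cAMP phosphodiesterase, had 73.4, 50.8 and 57.9 CPM in control and 114, 91.4 and 144 CPM in circ libraries, a log2 fold change of 0.94 (adjusted p = 0.376, DESeq2 0.00964). Both had every circ library above every control library, as had NR4A2, an orphan nuclear receptor, with 1.03 (adjusted p = 0.499). NR4A2 had 66.7 CPM in circ library 3 against 38.6 and 30.3 CPM in the other circ libraries, and 0.64 without that library. The CREB list also counts factors whose own mRNA need not follow their activity: CREB1 and ATF1 had log2 fold changes of 0.06 and -0.05.

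Early response genes were divided, with 10 positive and 9 negative values among 19 tested, a median of 0.05 and 0 calls in edgeR. FOSB, an AP-1 subunit, had 4.36, 3.81 and 4.41 CPM in control and 9.95, 7.43 and 8.91 CPM in circ libraries, a log2 fold change of 1.06 (edgeR adjusted p = 0.265, DESeq2 adjusted p = 0.00252). FOS had 30.2, 29.2 and 27.5 CPM in control and 40.3, 39.3 and 37.9 CPM in circ libraries, and a log2 fold change of 0.43 (adjusted p = 0.499). FOSL2 had 0.50 (adjusted p = 0.572). These 3 genes had the smallest p of the list. Groups were separate and higher in circ libraries for 5 of the 19 genes and lower for 1, beside 6.64% and 5.87% of tested genes. JUN and ATF3, at 0.27 and 0.32 (edgeR adjusted p = 0.766 and 0.724), were among the 5 with separate and higher groups. The AP-1 genes FOSL1, JUNB and JUND, at -0.28, 0.05 and -0.003, overlapped. The log2 fold change of FOS, 0.43, stood beside 0.40 for DUSP1, but the libraries differed. In circ library 3, FOS had its lowest value of the circ group and DUSP1 its highest.

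Of p38-activated kinases and proteins that bind AU-rich mRNA, 9 were tested, with 6 positive and 3 negative values, a median of 0.05 and 0 calls. Among the 9, circ libraries were separate and higher for 2 and lower for 1, beside 6.64% and 5.87% of tested genes. ZFP36 (tristetraprolin), which destabilises AU-rich transcripts and is itself an LPS-induced brake, had 151, 143 and 157 CPM in control and 202, 187 and 212 CPM in circ libraries. The groups were separate and the log2 fold change was 0.41 (edgeR adjusted p = 0.499, DESeq2 adjusted p = 0.135). MAPKAPK5, a kinase activated by p38, had 32.1, 41.5 and 37.1 CPM in control and 28.3, 27.7 and 28.2 CPM in circ libraries, with -0.40 (adjusted p = 0.612). ZFP36L2 had 0.63 (adjusted p = 0.882), with 185 CPM in circ library 3 and 108 CPM in control library 1 against 48.5 to 78.4 CPM in the other 4 libraries. Its value was 0.005 without the first of these and 1.08 without the second.

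The cytokine genes that Dusp1 is known to restrain in mouse macrophages had 3 positive and 5 negative values among 8 tested, a median of -0.11 and 0 calls in edgeR. IL10 had 11.0, 10.5 and 13.3 CPM in control and 21.9, 20.8 and 19.6 CPM in circ libraries, and IL6 92.3, 143 and 139 CPM against 191, 215 and 157 CPM. Both were higher in every circ library, with log2 fold changes of 0.84 and 0.59 (edgeR adjusted p = 0.265 and 0.602), and DESeq2 called IL10 (adjusted p = 0.0019). TNF, with 2488, 2773 and 2687 CPM in control and 2122, 2159 and 2444 CPM in circ libraries, was lower in every circ library, with -0.24 (edgeR adjusted p = 0.837). IL1B was also lower in every circ library, with -0.16 (edgeR adjusted p = 0.885). Groups were separate and higher for 2 of the 8 genes and lower for 2, beside 6.64% and 5.87% of tested genes. The members of this list thus did not share a direction.

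**Figure D4:**
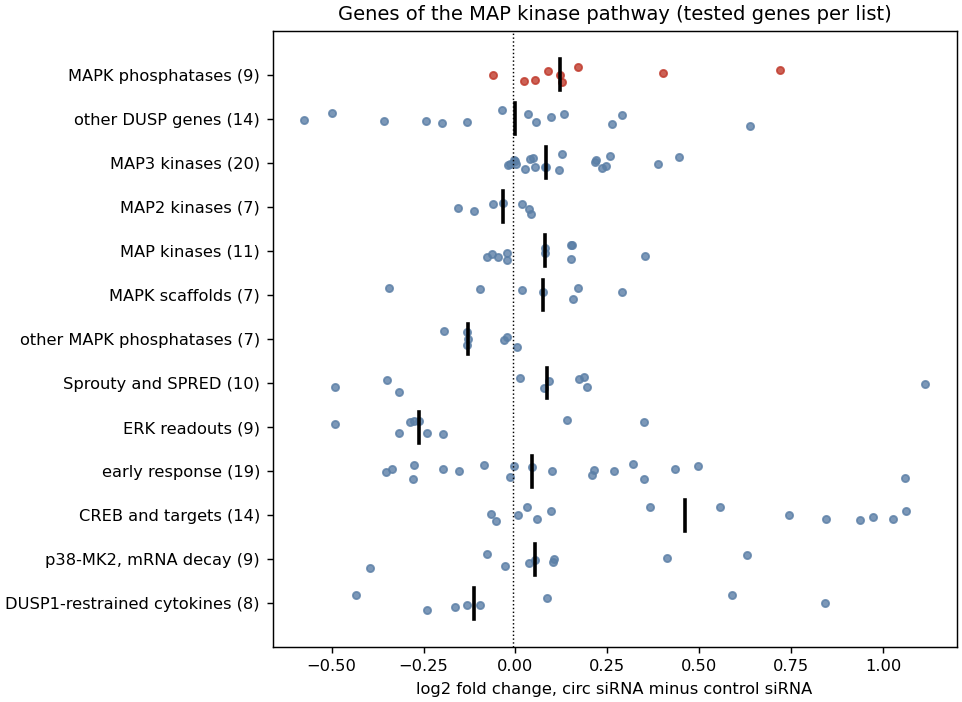
Log2 fold changes (circ siRNA minus control siRNA) of the tested genes of 13 lists, with the number tested in brackets; each point is a gene, black bars are list medians and the dotted line is the median of all 12469 tested genes. The MAPK phosphatases (red) lie near 0 apart from DUSP1 and DUSP16, ERK readouts have a median of -0.26, and genes of CREB and its targets have a median of 0.46. The lists were chosen with earlier results of these data known.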

How the data were processed

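Poly-A RNA was sequenced as paired ends, per the labels' protocols. CASAVA, cutadapt, HISAT2 and build GRCh38 are named in the submitters' processing notes. Not given in the sources used here are tool versions, the counter with its strand setting, and the release of the annotation. The table that the authors deposited holds whole-number read counts per gene, not normalised, and FPKM values that the authors scaled to each column's count total and the table's gene length.

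Counts were tested with edgeR 4.0.16 (quasi-likelihood, R 4.3.3), two-sided, with TMM scaling, a low-count filter (filterByExpr, minimum count 10) and no term besides group, over all genes. Benjamini-Hochberg adjusted p under 0.05 was the threshold. SE came from the F statistic. CPM are counts scaled to TMM-adjusted totals; marker sums use deposited totals. FPKM served to order and sum levels across genes and to show DUSP5 on a second scale, with no test. DESeq2 1.42.0 and limma 3.58.1 (voom) were alternatives, as were other scalings and filters, a replicate block, length and GC offsets (natural splines, 4 degrees of freedom) and libraries left out. Replicates differed by more than sampling noise in each group (chi-square per gene at least 5.92). Total counts ran from 14793902 to 16736972, and the precision of a fold change was set by this spread as well as by depth.

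The members, lists and tests were chosen with earlier results of these data known. Genes were named by rule: all members, up to 3 tested genes with the smallest p per pathway list, and the 5 nearest to the member with the smallest p. CREB1, ATF1, JUN, ATF3, FOSL1, JUNB, JUND, IL1B and the markers were named in addition, after their values were seen. RefSeq promoter sequences (GRCh38.p14) were matched by symbol for 7 of 9 members. The table's identifiers matched GENCODE 29 for 19914 genes.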

Additional observations from a re-analysis of the deposited data

How the results depend on the processing

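Over all genes, edgeR called 0 higher, DESeq2 60, edgeR with offsets for length and GC 6, with 919 without control library 1 and circ library 3, and 3 at an adjusted p under 0.1. Calls lower numbered 1 in edgeR, 22 with DESeq2, 2 without the filter, 6 with the offsets, 926 without these 2 libraries and 4 at an adjusted p under 0.1. They numbered 0 with library totals alone, limma-voom, an adjusted p under 0.01, the replicate block, and the replicate block with length and GC offsets, and 0 to 0 with each library left out. Members called higher numbered 0 in all these fits except 3 without control library 1 and circ library 3, and members called lower 0 in all. Pathway list genes called numbered 0, 4 with DESeq2 and 34 without these 2 libraries. The cause of these changes was not tested.

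Of 144 member values under 16 alternative fits, 133 had an unaltered sign and call, 3 became called and 8 changed sign, none of them called. DUSP2 was at -0.0074 and DUSP6 at 0.029 without control library 1 and circ library 3, and DUSP4 at -0.0066 with the replicate block and offsets. With each library left out, DUSP6 ran from -0.12 to 0.045, DUSP10 from -0.063 to 0.15 and DUSP14 from -0.0073 to 0.32; MAP2K5 ran from -0.20 to 0.0059, MAP2K2 from -0.38 to 0.020 and MAP2K7 from -0.0091 to 0.12. MAPK10 was at -0.017 with offsets and -0.018 with offsets and the replicate block. Scaling moved the median of all genes by less than 0.1.

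The same-numbered libraries correlated at -0.17, 0.46 and -0.37 in their deviations from group means. Only for number 2 was the same-numbered library the best match in both directions. With 3 libraries per group, these correlations cannot decide whether the libraries were paired. With the replicate block DUSP16 was at 0.73 and DUSP1 at 0.40 (edgeR adjusted p = 0.643 and 0.941). With 3 libraries per group, the 95% intervals of the 9 uncalled members reach up to 2.17-fold (DUSP16), so a p that misses the threshold does not show equal levels.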
